A study of Homo sapiens with 145 samples.

Results

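The comparison described here is that of HT-1080 cells exposed to 500 µM methyl methanesulfonate (MMS) for 24 h with cells given the vehicle. Its arrays were chosen by the labels: 5 arrays of the 500 µM group (numbers 2 to 6, with no number 1) and 6 vehicle arrays of the MMS experiment (numbers 1 to 6), 11 of the 145 arrays of the series and of the 47 in its MMS experiment. HT-1080 is an established human fibrosarcoma line that carries an activated NRAS allele and functional p53. The study exposed these cells, in 24-well plates, to 7 doses each of 3 chemicals, and RNA was measured on Affymetrix arrays that read transcripts near their 3′ end. Both groups received DMSO at 0.1% of the medium, the 500 µM group as the solvent of MMS and the vehicle group alone, and both stayed in serum-containing medium throughout. The nearest lower dose, 300 µM MMS (6 arrays), is used where the question is what set the highest dose apart. All groups are 1 cell line, and the labels do not say that numbers stand for separate cultures. The p-values therefore measure a spread between arrays, pooled over the 8 groups of the MMS experiment, which may be technical.

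MMS transfers methyl groups to DNA, mainly to nitrogens of guanine and adenine. N-methylpurines are removed by base excision repair, which starts with the glycosylase MPG, the rarer O6-methylguanine is reversed by MGMT, and lesions or repair intermediates left in the template can block DNA and RNA polymerases. MMS also reacts with thiols of glutathione and proteins, so that the antioxidant factor NRF2, the heat shock factor HSF1 and the p53 pathway are all known to respond to such agents.

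A few arrays stood apart from the rest of their group before any comparison. Dosed number 5 had the lowest heat shock gene levels and the highest cytokine levels of the 5 dosed arrays, dosed number 3 had the lowest upper quartile (5.68, against 5.86 to 5.95 on the other 4), and vehicle number 5 was low in many S-phase genes. Limma's array weights over the 47 MMS arrays were 0.37 for dosed number 5, 0.29 for dosed number 3 and 0.49 for vehicle number 5, and 0.71 to 1.03 for the other dosed arrays. Leaving out these 3 arrays gave 4210 changed genes in place of 4173, and results that rest on them are given both ways. Of 10 mesenchymal markers fixed for HT-1080, 8 were above the filter level, led by VIM and LGALS1, whereas THY1 and NT5E were not. CDH1 and EPCAM, which define epithelial cells, averaged under 3 in both groups, as did the blood cell gene PTPRC and the endothelial gene CDH5. Among the blood cell markers CD68 passed the filter, with means of 4.71 in vehicle and 4.52 on the dosed arrays. Among the endothelial markers PECAM1 passed it, with means of 3.52 in vehicle and 3.14 on the dosed arrays. The keratins KRT8 and KRT18 and the desmosome gene DSP were the 3 of 12 epithelial markers above the filter level.

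Genes counted as changed had a limma p-value under 0.05 after Benjamini-Hochberg adjustment and differed by 1.5-fold or more. Of 12070 genes tested, 2133 were higher at 500 µM (17.7%) and 2040 were lower (16.9%), and the median change over all genes was 0.05 on the log2 scale. With separate ranges of dosed and vehicle values as a further condition, 1764 were higher (14.6%) and 1695 were lower (14.0%). The large changes were mostly falls: 297 genes fell at least 4-fold and 42 rose at least 4-fold among genes called. Against 300 µM, 986 genes were higher (8.17%) and 1266 were lower (10.5%). The shares of all genes called in each comparison are the background of the list counts below. In the sentences below, changes are log2 differences of group means ± SE from limma with its adjusted p, levels are log2 probe set values, the 5 dosed values are in the order of numbers 2 to 6, and a group mean below 4 was treated as background.

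**Figure D1:**
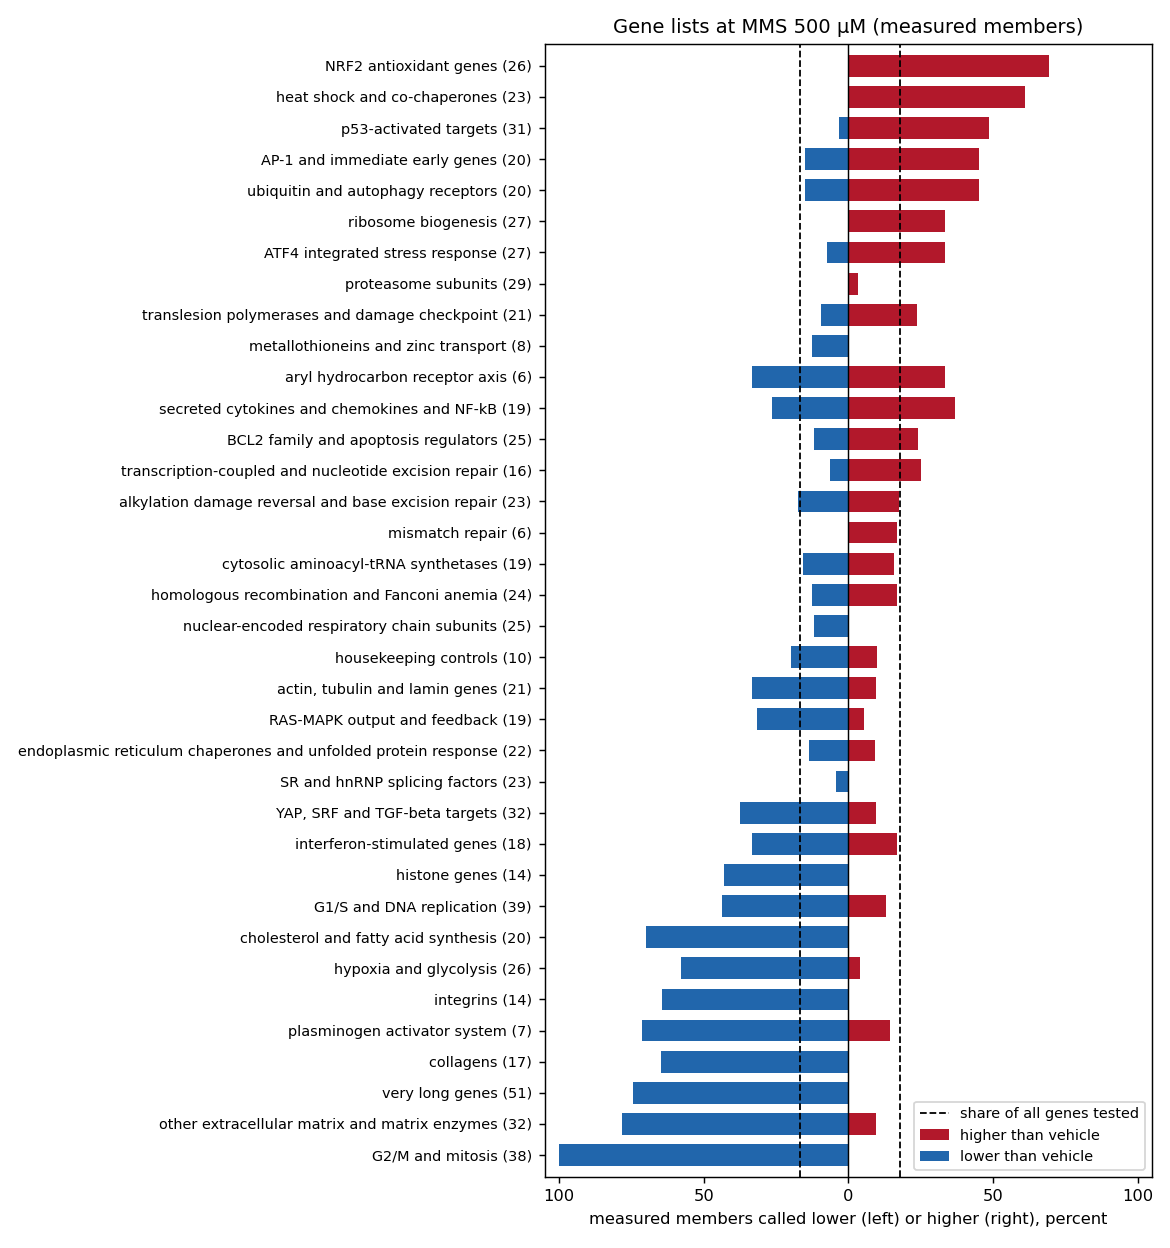
Share of the measured members of 36 gene lists that were called lower (blue, left) or higher (red, right) at 500 µM MMS than in vehicle, with the number of measured members in brackets and lists ordered by median change. Dashed lines mark the shares over all genes tested, 16.9% lower and 17.7% higher; the NRF2 list lies farthest to the right and the G2/M list, with all 38 members lower, farthest to the left.

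Genes activated by p53 were higher at 500 µM, with 15 of 31 measured members higher and 1 lower, against 17.7% and 16.9% of all genes. The median change of the list was 0.49. CDKN1A, the cyclin-dependent kinase inhibitor p21, read 9.85, 10.19, 9.52, 9.94 and 9.57 on the dosed arrays and 8.20 to 8.67 with a median of 8.39 on the vehicle arrays. Every dosed array was above every vehicle array, and the change was 1.41 ± 0.10 (limma, adjusted p = 2.75e-16). The death receptor FAS changed by 1.32 ± 0.13, TP53INP1 by 1.38 ± 0.13, the kinase PLK3 by 1.49 ± 0.17 and the damage-recognition gene XPC by 1.12 ± 0.12. MDM2, the ubiquitin ligase that limits p53, read 10.60, 10.43, 10.39, 10.36 and 10.63 against 9.21 to 9.92 with a median of 9.63 in vehicle, a change of 0.89 ± 0.13 (limma, adjusted p = 1.92e-07). GDF15, a secreted stress ligand, changed by 1.27 ± 0.23. The member that fell was PLK2, a polo-like kinase, at -1.22 ± 0.11. Without the 3 arrays that stood apart, 13 members were higher and 1 was lower.

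Fewer p53 targets were called higher than vehicle at 500 than at 300 µM. At 300 µM 18 of the 31 were higher and 0 lower with a median change of 0.67, where 4.46% of all genes were higher and 7.75% lower, beside 15 higher, 1 lower and a median of 0.49 at 500 µM. In the direct comparison of the doses 1 of the 31 was higher and 7 were lower at 500 µM, against 8.17% and 10.5% of all genes, and the median difference was -0.13. CDKN1A, MDM2 and FAS were not called different between the doses, which does not show that their levels were the same. Changes from vehicle at 300 and 500 µM, which share the vehicle arrays, were 1.35 and 1.41 for CDKN1A, 1.02 and 0.89 for MDM2, and 1.33 and 1.32 for FAS. The direct difference, 500 minus 300 µM, was 0.06 ± 0.10 for CDKN1A (limma, adjusted p = 0.6359), -0.13 ± 0.13 for MDM2 (adjusted p = 0.4435) and -0.01 ± 0.13 for FAS (adjusted p = 0.9679). PLK2 was -0.27 at 300 µM and -1.22 at 500 µM, a difference of -0.95 ± 0.11 (adjusted p = 1.74e-09).

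**Figure D2:**
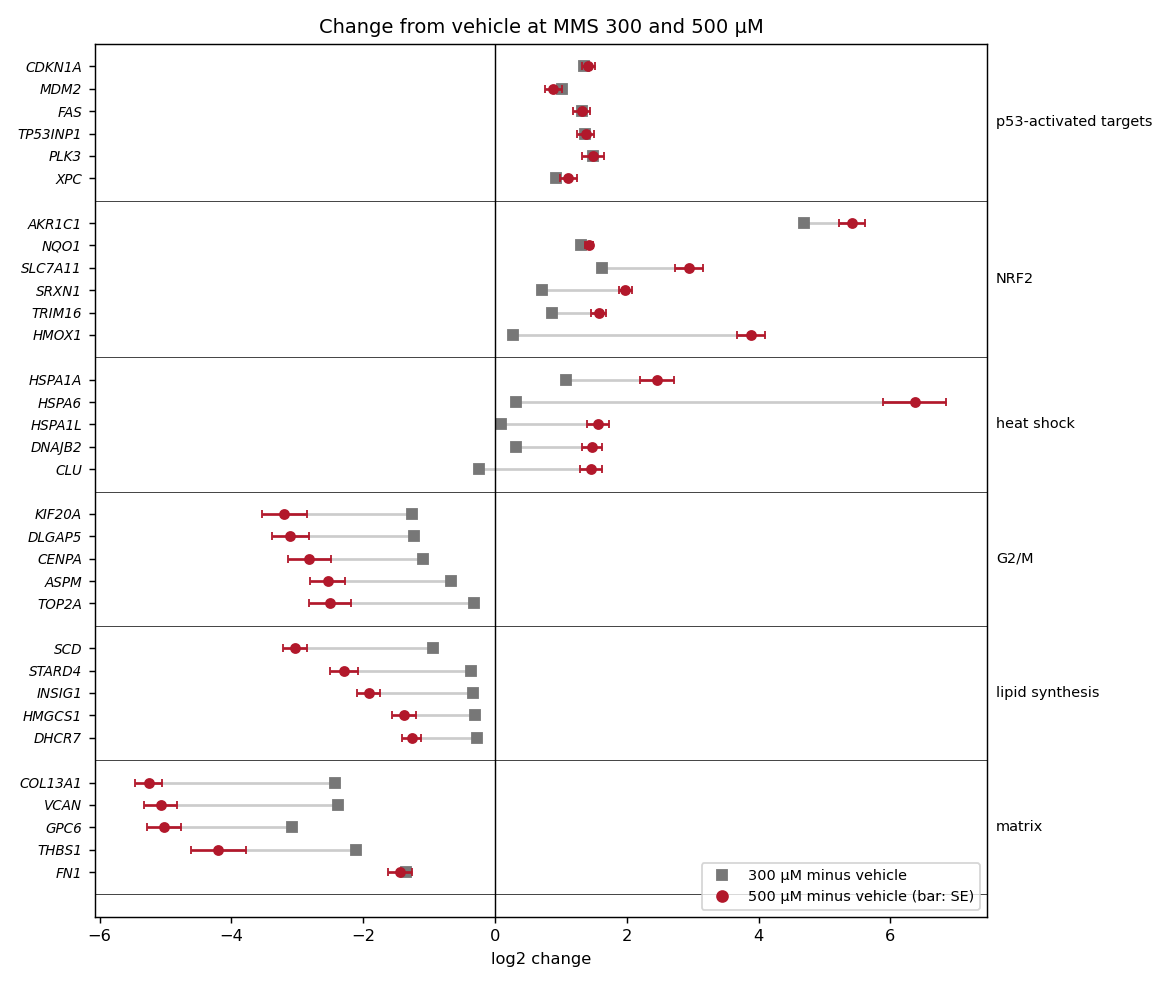
Log2 change from vehicle of named genes of 6 groups at 300 µM (grey squares) and at 500 µM (red circles, bars are the SE of the 500 µM change). CDKN1A, FAS and PLK3 lie at nearly the same place at both doses, HMOX1 and HSPA6 lie near 0 at 300 µM and at 3.88 and 6.37 at 500 µM, and the G2/M and lipid synthesis genes lie farther left at 500 µM.

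Antioxidant genes under NRF2 formed the list with the highest share of rises, 18 of 26 measured members higher and 0 lower, against 17.7% and 16.9% of all genes. The median change of the list was 0.94. AKR1C1, an aldo-keto reductase of steroids and reactive carbonyls, read 11.04, 11.12, 10.84, 11.16 and 10.52 against 5.29 to 6.13 with a median of 5.40 in vehicle. The groups were more than 4 log2 units apart, and the change was 5.42 ± 0.20, a 42.9-fold rise (limma, adjusted p = 8.09e-26). Its close relative AKR1C2 changed by 3.26 ± 0.16, and because these genes are near-identical in sequence their probe sets may share signal. SLC7A11, which imports the cystine needed for glutathione, read 11.49, 11.17, 11.28, 11.47 and 11.17 against 7.62 to 8.76 with a median of 8.48 in vehicle, a change of 2.95 ± 0.21 (limma, adjusted p = 5.09e-16). SRXN1, which repairs oxidised peroxiredoxins, changed by 1.98 ± 0.10, the ubiquitin ligase TRIM16 by 1.57 ± 0.11 and the quinone reductase NQO1 by 1.42 ± 0.06. Without the 3 arrays that stood apart, 17 members were higher.

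The NRF2 genes named above differed in how much of their change was already present at 300 µM, and HMOX1, heme oxygenase 1, was not called against vehicle at that dose. It read 10.65, 9.88, 10.63, 10.35 and 10.92 on the dosed arrays and 6.12 to 7.21 with a median of 6.58 on the vehicle arrays, and no dosed array came near the vehicle range. Its change from vehicle was 3.88 ± 0.21 at 500 µM (limma, adjusted p = 7.92e-20) and 0.28 at 300 µM, and the difference between the doses was 3.60 ± 0.21 (adjusted p = 2.59e-17). NQO1, in contrast, was 1.31 at 300 µM and 1.42 at 500 µM, a difference of 0.12 ± 0.06 (adjusted p = 0.1230). AKR1C1 was 4.69 and 5.42, with a difference of 0.74 ± 0.20 (adjusted p = 0.0021). SLC7A11 was 1.63 and 2.95, with a difference of 1.32 ± 0.21 (adjusted p = 2.01e-06), and SRXN1 was 0.72 and 1.98, with a difference of 1.26 ± 0.10 (adjusted p = 9.26e-14). Over the list, 11 of 26 members were higher and 2 were lower at 500 than at 300 µM, beside 8.17% and 10.5% of all genes. The antioxidant response element, searched as TGACNNNGC on both strands of the 250 bases before the start of each gene, was in 4 of 20 promoters of the list, a share of 20.0% beside 12.2% of the promoters of tested genes.

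**Figure D3:**
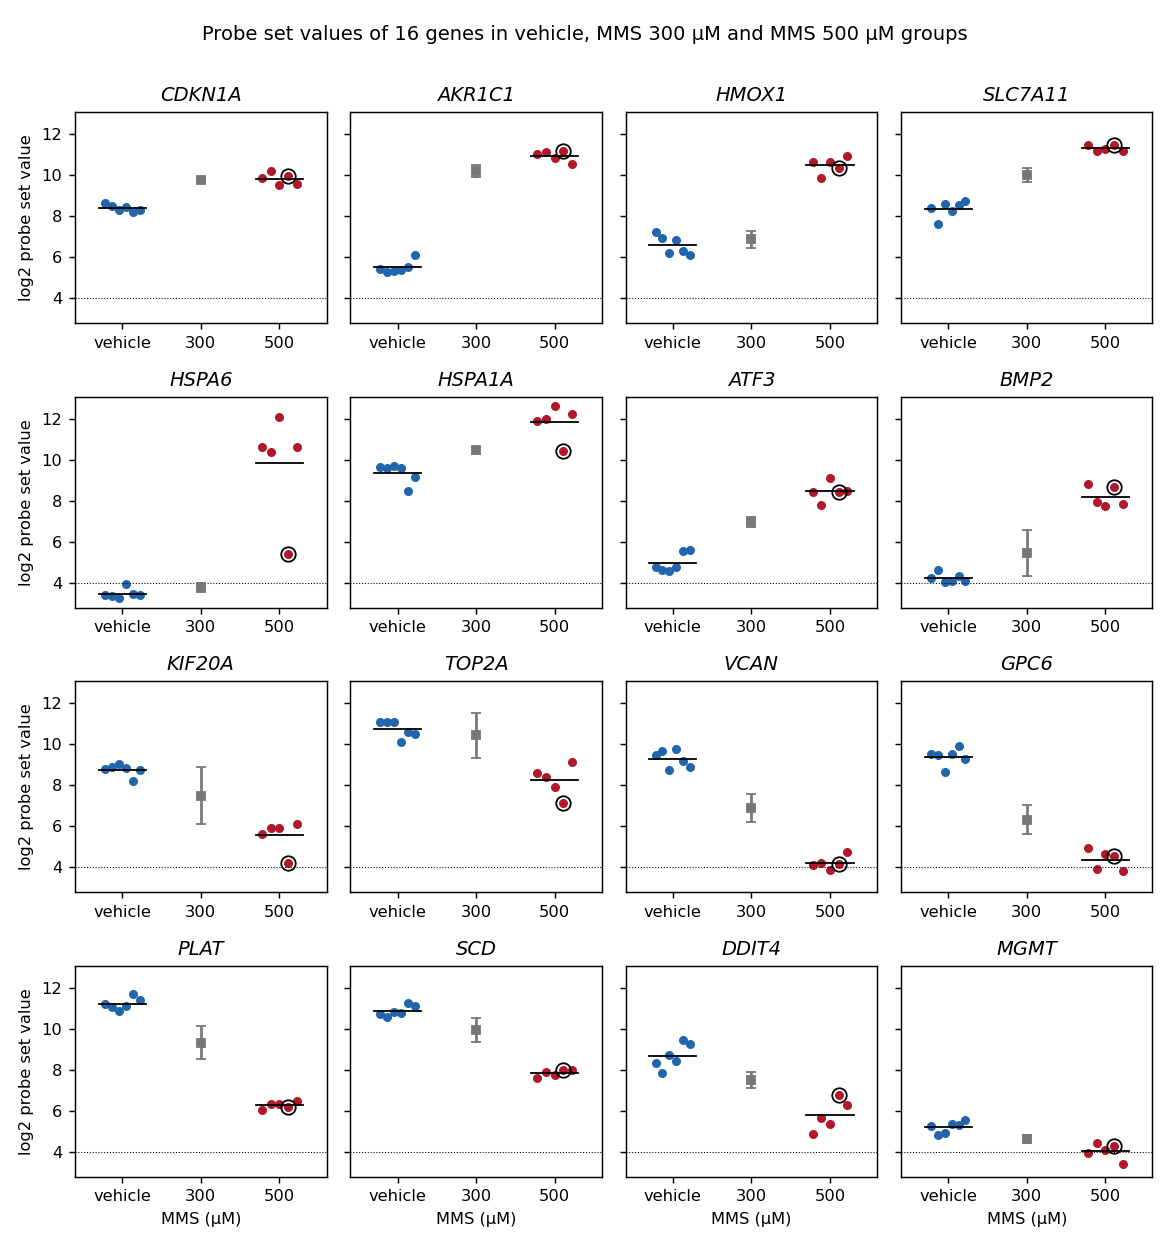
Log2 probe set values of 16 genes on the 6 vehicle arrays (blue points) and the 5 arrays at 500 µM (red points), with group means as lines and the 300 µM group as its mean ± SD over 6 arrays (grey squares). The dotted line marks the filter level of 4 and the circle marks dosed number 5, which reads 5.41 for HSPA6 where the other 4 dosed arrays read 10.37 or more.

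Heat shock proteins and their co-chaperones, which refold damaged proteins, were higher in 14 of 23 measured members and lower in 0, against 17.7% and 16.9% of all genes. The median change of the list was 0.70. HSPA6, an Hsp70 that is nearly silent in unstressed cells, read 10.63, 10.37, 12.10, 5.41 and 10.61 on the dosed arrays and 3.25 to 3.93 with a median of 3.38 on the vehicle arrays. Dosed numbers 2, 3, 4 and 6 were far above every vehicle array, whereas number 5 was only modestly above them. The change was 6.37 ± 0.48 (limma, adjusted p = 2.79e-15), and 7.47 without dosed number 5. The SD was 2.56 on the dosed arrays, 0.24 in vehicle and 0.21 at 300 µM. The SE of 0.48 rests on 1 spread pooled over the 8 MMS groups, so it understates the spread of the dosed arrays. The vehicle mean was under 4, so the size of this change is uncertain. HSPA1A, the main inducible Hsp70, read 11.91, 11.97, 12.60, 10.44 and 12.23 against 8.48 to 9.68 with a median of 9.61 in vehicle, a change of 2.46 ± 0.25 (limma, adjusted p = 2.01e-11). Number 5 was again the lowest dosed array, although still above the vehicle range, and the part of this array in the result was not tested beyond leaving it out. HSPA1L changed by 1.56 ± 0.16, the co-chaperone DNAJB2 by 1.48 ± 0.15 and the secreted chaperone clusterin (CLU) by 1.45 ± 0.17. Without the 3 arrays that stood apart, 12 members were higher.

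Part of the heat shock list also differed from the dose below. At 300 µM the change from vehicle was 0.32 for HSPA6, 0.09 for HSPA1L and -0.24 for CLU. The difference between 500 and 300 µM was 6.05 ± 0.48 for HSPA6 (limma, adjusted p = 1.32e-13), 1.69 ± 0.17 for CLU (adjusted p = 4.11e-11) and 1.38 ± 0.25 for HSPA1A (adjusted p = 1.74e-05). In the list, 7 of 23 members were higher and 0 were lower than at 300 µM, beside 8.17% and 10.5% of all genes. Heat shock factors bind repeats of nGAAn blocks, and a strict 3-block form, GAANNTTCNNGAA on either strand, was in 4 of 20 promoters of the list (HSPA6, HSPA8, DNAJB6 and CHORDC1) and in 0.353% of the 9902 promoters of tested genes. The HSPA6 promoter is shown because this gene had the largest rise of the list; the window runs up to the annotated start, the capitals mark the match, and the sequence is from RefSeq (GRCh38.p14, chr1:161524450-161524539, plus strand).
HSPA6: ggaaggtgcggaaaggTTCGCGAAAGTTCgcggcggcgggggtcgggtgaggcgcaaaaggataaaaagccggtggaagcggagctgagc

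The match begins at position -74 relative to the start. Of the 4 genes with a match, HSPA6 and DNAJB6 were called higher and HSPA8 and CHORDC1 were not.

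Genes that carry damaged proteins to degradation were also higher in part, while most proteasome subunits were not called. ZFAND2A, an arsenite-inducible partner of the proteasome, read 10.33, 9.71, 11.24, 9.86 and 10.44 against 6.39 to 6.67 with a median of 6.49 in vehicle. No arrays overlapped, and the change was 3.81 ± 0.17 (limma, adjusted p = 1.19e-22), against 1.13 at 300 µM. Of 20 ubiquitin and autophagy genes 9 were higher and 3 were lower, against 17.7% and 16.9% of all genes. The rises began with the receptor SQSTM1 (1.76 ± 0.16) and the autophagosome proteins GABARAPL1 (1.65 ± 0.23) and MAP1LC3B (1.11 ± 0.09). For SQSTM1, 2 of 4 other probe sets were called higher and 1 was called lower. Among the falls were ATG7, which activates those autophagosome proteins (-1.60 ± 0.14), and TFEB, the lysosomal transcription factor (-1.59 ± 0.19, dosed mean under 4). Of 29 proteasome subunits 1 was called higher and 0 lower, against 17.7% and 16.9% of all genes, with changes from -0.18 to 0.85.

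Of 27 genes of the integrated stress response under ATF4, 9 were higher (33.3%) and 2 were lower (7.41%), against 17.7% and 16.9% of all genes. Their median change was 0.21. ATF3, a stress-induced transcription factor, read 8.42, 7.80, 9.12, 8.44 and 8.49 against 4.56 to 5.59 with a median of 4.76 in vehicle, a change of 3.48 ± 0.25 (limma, adjusted p = 2.38e-16). All dosed arrays lay above the vehicle range. PPP1R15A, which restores translation after stress, changed by 1.98 ± 0.20 and the amino acid transporter subunit SLC3A2 by 1.70 ± 0.20. DDIT3 (CHOP) read 6.61, 6.49, 7.48, 7.55 and 7.25 against 5.71 to 7.67 with a median of 6.27 in vehicle. The groups overlapped, with vehicle number 5 the highest vehicle array at 7.67, and the change of 0.71 ± 0.38 did not pass the test (limma, adjusted p = 0.1015). The change passed the test without the 3 arrays that stood apart (1.00, limma adjusted p = 0.0448). It also passed with number 5 left out of every group (0.85, limma adjusted p = 0.0026). With the replicate number as a block the DDIT3 change was 0.65 and passed the test (limma, adjusted p = 3.75e-05). DDIT4, an inhibitor of mTORC1 that also answers to hypoxia, read 4.88, 5.67, 5.35, 6.76 and 6.26 against 7.84 to 9.44 with a median of 8.58, a change of -2.88 ± 0.33 (limma, adjusted p = 3.18e-10). VLDLR, a lipoprotein receptor, changed by -2.81 ± 0.23.

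Dosed number 5 and vehicle numbers 5 and 6 had the highest means of this list in their groups, and the group ranges overlapped (7.54 to 8.26 dosed, 7.19 to 8.00 vehicle). ALDH1L2, a mitochondrial folate enzyme of the list, was called at 1.26 ± 0.44 (vehicle mean under 4) and lost the call without dosed number 5. The ALDH1L2 call was kept with number 5 left out of every group (1.19, limma adjusted p = 0.0027) and without the 3 arrays that stood apart (1.62, adjusted p = 0.0023). Chaperones of the endoplasmic reticulum were near the background shares, with 2 of 22 higher and 3 lower: the co-chaperone DNAJB9 changed by 0.89 ± 0.13, the isomerase PDIA4 by -1.04 ± 0.09 and XBP1, a transcription factor of the unfolded protein response, by -0.69 ± 0.19. The XBP1 call was lost without dosed number 3. Of 19 cytosolic aminoacyl-tRNA synthetases 3 were higher and 3 lower, beside 17.7% and 16.9% of all genes.

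Genes of G2 and mitosis were lower throughout: all 38 measured members were called lower, against 16.9% of all genes, with changes from -3.20 to -0.61 and a median of -1.74. KIF20A, a kinesin of cytokinesis, read 5.62, 5.93, 5.89, 4.20 and 6.13 on the dosed arrays and 8.21 to 9.05 with a median of 8.80 on the vehicle arrays, a change of -3.20 ± 0.35 (limma, adjusted p = 7.05e-11). The centromeric histone CENPA read 5.70, 6.12, 6.22, 4.99 and 6.66 against 8.19 to 9.14 with a median of 8.84, a change of -2.82 ± 0.33 (limma, adjusted p = 5.13e-10). TOP2A, the topoisomerase of dividing cells, read 8.61, 8.41, 7.92, 7.12 and 9.13 against 10.11 to 11.10 with a median of 10.83, a change of -2.51 ± 0.32 (limma, adjusted p = 3.64e-09). In KIF20A, CENPA and TOP2A dosed number 5 was the lowest array, and no dosed array reached the vehicle range. The spindle genes DLGAP5 and ASPM changed by -3.11 ± 0.28 and -2.54 ± 0.26. Each array holds RNA of a whole culture, so fewer dividing cells and less RNA per dividing cell cannot be told apart. The mean of the list was 6.54 on dosed number 5, 7.25 to 7.89 on the other dosed arrays and 8.80 to 9.38 on the vehicle arrays, of which number 5 was the lowest. Without the 3 arrays that stood apart, 37 members were lower.

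All 38 measured members were also called lower at 500 than at 300 µM, where 14 were below vehicle. TOP2A, for example, was -0.32 from vehicle at 300 µM, and the difference between the doses was -2.19 ± 0.32 (limma, adjusted p = 2.48e-07). The 300 µM arrays were uneven in some of these genes, with an SD of 1.41 for KIF20A and 1.33 for CENPA. In both genes the 300 and 500 µM arrays overlapped. Number 5 of the 300 µM group had the lowest array weight of the MMS experiment, 0.21, and was not among the arrays left out above. Many genes of this phase carry a cell cycle homology region, TTTGAA, close to their start, a sequence read by the DREAM complex, through which p53 and p21 repress them. Searched on both strands of the 250 bases before the start, it was in 18 of 33 promoters of the list (54.5%), in 8.60% of the promoters of tested genes and in 13.6% of all 27305 promoters in the table. Short windows of 4 promoters are shown because they hold the motif shortly before the start in genes that fell by 1.91 to 2.82; capitals mark TTTGAA, or TTCAAA where the motif lies on the opposite strand, and the sequences are from RefSeq (GRCh38.p14). The windows are chr15:59105086-59105145, plus strand for CCNB2, chr16:23678829-23678888, plus strand for PLK1, chr3:44761734-44761793, plus strand for KIF15 and chr2:26785996-26786055, plus strand for CENPA, and each ends at the base before the annotated start.
CCNB2: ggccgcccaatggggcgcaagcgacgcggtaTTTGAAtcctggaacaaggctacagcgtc
PLK1: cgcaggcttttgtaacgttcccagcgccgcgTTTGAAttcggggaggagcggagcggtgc
KIF15: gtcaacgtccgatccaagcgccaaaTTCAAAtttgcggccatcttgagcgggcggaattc
CENPA: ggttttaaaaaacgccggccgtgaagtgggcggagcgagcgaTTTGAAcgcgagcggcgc

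CCNB2 encodes the mitotic cyclin B2, PLK1 the mitotic polo-like kinase, KIF15 a spindle kinesin and CENPA the centromeric histone. Their changes were -2.13, -2.12, -1.91 and -2.82. Relative to the start, the motif begins at position -29 in CCNB2 and in PLK1, at -35 in KIF15 and at -18 in CENPA.

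Genes of the G1/S transition and DNA replication were called lower more often than genes in general, and higher less often. Of 39 measured, 17 were lower (43.6%) and 5 higher (12.8%), against 16.9% and 17.7% of all genes. Lower were the replication helicase subunit MCM7 (-1.60 ± 0.14), the primase-bound polymerase subunit POLA1 (-2.22 ± 0.20), thymidine kinase TK1 (-1.67 ± 0.22) and the repressor E2F8 (-2.71 ± 0.27, dosed mean under 4). Higher was CCNE1, the G1/S cyclin E1, which read 6.40, 6.70, 6.84, 6.11 and 6.29 against 4.87 to 5.86 with a median of 5.18 in vehicle, a change of 1.23 ± 0.22 (limma, adjusted p = 3.73e-06). The phosphatase CDC25A changed by 1.00 ± 0.27, a call lost when the probe sets of a gene were averaged, and neither of its 2 other probe sets was called. CCNE2, whose vehicle number 5 read 5.89 against a vehicle median of 7.43, changed by 0.89 ± 0.36. The CCNE2 call was lost without vehicle number 5 and without dosed number 2, 4 or 6. The mean of the list was 7.01 on dosed number 5 and 7.45 on vehicle number 5, the lowest of each group, and the group ranges overlapped. Of 14 histone genes 6 were lower and 0 higher, against 16.9% and 17.7% of all genes, with H2AZ2 at -1.23 ± 0.12. H2AC6 and H2BC21, whose dosed and vehicle arrays overlapped, were higher at 500 than at 300 µM (differences 1.03 ± 0.20 and 0.74 ± 0.23) although lower than vehicle at both. The H2BC21 call against vehicle was lost without dosed number 5 and kept with number 5 left out of every group (-0.68, limma adjusted p = 0.0197).

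Genes that repair methylated bases were called about as often as genes in general, with 4 of 23 higher and 4 lower against 17.7% and 16.9% of all genes, and their median change was 0.01. MGMT, which reverses O6-methylguanine, read 3.94, 4.41, 4.07, 4.29 and 3.41 against 4.80 to 5.56 with a median of 5.28 in vehicle, a change of -1.18 ± 0.16 (limma, adjusted p = 2.17e-08); its dosed values lie at the filter level. MPG, the glycosylase of N-methylpurines, read 8.51, 8.88, 8.84, 8.81 and 8.59 against 8.59 to 9.24 with a median of 8.92, and its change of -0.20 ± 0.14 did not pass the test (limma, adjusted p = 0.2151). ALKBH1, of the family of oxidative demethylases, read 7.76, 7.98, 8.29, 8.09 and 8.02 against 6.57 to 6.89 with a median of 6.71, a change of 1.31 ± 0.09 (limma, adjusted p = 4.59e-16). ALKBH2, which removes methyl groups from DNA by the same chemistry, changed by 0.88 ± 0.13, and the dosed and vehicle arrays of both genes were separate. The scaffold XRCC1 changed by -0.76 ± 0.19 and APTX, which clears blocked strand breaks, by 0.79 ± 0.12.

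Double-strand break repair genes were also called at shares near those of all genes. RAD50, of the break-sensing MRN complex, read 8.99, 8.82, 8.92, 9.04 and 8.85 against 6.88 to 7.52 with a median of 7.43 in vehicle, a change of 1.59 ± 0.13 (limma, adjusted p = 2.75e-14). It was 1 of 4 of 24 homologous recombination and Fanconi genes that were higher (17.7% of all genes), and 3 were lower (16.9% of all genes), among them the ubiquitin-conjugating enzyme UBE2T (-0.95 ± 0.19). At 300 µM UBE2T was 0.22 from vehicle. Of the 24, 7 were higher than vehicle at 300 µM, against 4.46% of all genes, and 9 were called lower at 500 than at 300 µM, against 10.5% of all genes. The checkpoint clamp genes RAD17, RAD1 and RAD9A changed by 0.82 ± 0.14, 0.67 ± 0.13 and 0.72 ± 0.16 (vehicle mean under 4 for RAD9A), whereas the kinases CHEK2 and WEE1, which hold cells before mitosis, changed by -0.81 ± 0.13 and -0.99 ± 0.11. Of 16 nucleotide excision repair genes 4 were higher and 1 was lower, beside 17.7% and 16.9% of all genes. The lower gene was the transcription-coupled repair factor ERCC6 (-0.62 ± 0.17). Its call was lost in 6 of 23 alternatives, those without dosed number 2, dosed number 3 or vehicle number 4 among them. Among 25 apoptosis regulators 6 were higher and 3 lower, also beside 17.7% and 16.9% of all genes. The pro-apoptotic BAK1 and BOK changed by 0.84 ± 0.14 and 1.02 ± 0.11, the anti-apoptotic BCL2L1 and XIAP by 0.78 ± 0.10 and 0.83 ± 0.10, and the mitophagy gene BNIP3 by -1.08 ± 0.08.

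Matrix genes held the 3 largest falls among genes with both means at 4 or more. Of 17 collagens 11 were lower and 0 higher (median -0.97), of 32 other matrix genes 25 were lower and 3 higher (median -1.66), and of 14 integrins 9 were lower and 0 higher. Of all genes 16.9% were lower and 17.7% higher. COL13A1, a transmembrane collagen, read 4.97, 5.68, 4.97, 6.42 and 5.38 on the dosed arrays and 10.47 to 11.03 with a median of 10.76 on the vehicle arrays. The change was -5.25 ± 0.21, 38.1-fold lower (limma, adjusted p = 9.22e-25), and -2.42 at 300 µM. The proteoglycan versican (VCAN) read 4.10, 4.21, 3.86, 4.16 and 4.73 against 8.73 to 9.75 with a median of 9.33, a change of -5.07 ± 0.25 (limma, adjusted p = 1.68e-21). The glypican GPC6 read 4.93, 3.93, 4.65, 4.53 and 3.83 against 8.65 to 9.91 with a median of 9.50, a change of -5.02 ± 0.26 (limma, adjusted p = 5.18e-21). In these 3 genes the dosed arrays sat at or not far above the filter level, more than 3 log2 units below the lowest vehicle array. Thrombospondins THBS1 and THBS2 changed by -4.20 ± 0.42 and -3.41 ± 0.25, and LTBP1, which stores latent TGF-beta, by -4.26 ± 0.22. FN1, fibronectin, changed by -1.44 ± 0.18, with -1.36 at 300 µM and a difference between doses of -0.09 ± 0.18 (limma, adjusted p = 0.7305).

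The 3 matrix genes that rose were MMP3, TIMP1 and GPC1. MMP3, stromelysin 1, read 8.84, 8.38, 7.96, 6.00 and 7.93 against 2.88 to 3.14 with a median of 3.02 in vehicle; its change was 4.81 ± 0.24 (limma, adjusted p = 1.65e-21), with a vehicle mean under 4, and 0.57 at 300 µM. TIMP1, an inhibitor of matrix metalloproteinases, changed by 0.74 ± 0.13. GPC1 changed by 0.72 ± 0.13 and lost the call without the 3 arrays that stood apart. Among integrins, ITGA4 read 6.09, 5.64, 5.79, 6.08 and 6.05 against 7.48 to 7.88 with a median of 7.80, a change of -1.82 ± 0.11 (limma, adjusted p = 6.77e-19), and ITGA6, ITGA10 and ITGB8 changed by -1.75 ± 0.17, -2.68 ± 0.29 and -2.73 ± 0.22, the last with a dosed mean under 4. Both plasminogen activators fell. PLAT, the tissue type, read 6.05, 6.32, 6.31, 6.20 and 6.49 against 10.84 to 11.69 with a median of 11.15, a change of -4.95 ± 0.22 (limma, adjusted p = 1.19e-22), and PLAU, the urokinase type, read 7.98, 9.00, 8.27, 7.88 and 8.20 against 10.85 to 11.11 with a median of 11.05, a change of -2.74 ± 0.16. PLAT differed from 300 µM by -3.05 ± 0.22 (adjusted p = 1.30e-14). HHIP, which binds hedgehog ligands, changed by -4.64 ± 0.17, the G protein regulator RGS4 by -3.95 ± 0.34, the G protein subunit GNG2 by -4.19 ± 0.26, the RNA-binding protein BICC1 by -3.85 ± 0.19 and the protease PAPPA by -3.82 ± 0.23.

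Targets of YAP, SRF and TGF-beta, factors that follow cell tension and growth factors, were lower in 12 of 32 and higher in 3, against 16.9% and 17.7% of all genes. Without the 3 arrays that stood apart 6 were higher and 11 lower. ANKRD1, a nuclear YAP target, read 8.07, 6.81, 8.36, 7.71 and 8.13 against 5.13 to 6.24 with a median of 5.66 in vehicle, a change of 2.19 ± 0.30 (limma, adjusted p = 2.28e-08). At 300 µM it was -0.18, and the difference was 2.37 ± 0.30 (adjusted p = 1.40e-08). BMP2, a ligand of the TGF-beta family, read 8.80, 7.96, 7.73, 8.66 and 7.84 against 4.05 to 4.60 with a median of 4.16, a change of 3.97 ± 0.30 (limma, adjusted p = 2.67e-15) and 1.22 at 300 µM. The ligand TGFB2 and the receptors TGFBR2 and TGFBR3 changed by -3.43 ± 0.33, -2.05 ± 0.13 and -3.74 ± 0.23 (dosed mean under 4 for TGFBR3), and actin-binding CNN3 by -1.73 ± 0.11. Of 19 genes of RAS-MAPK output 6 were lower and 1 higher, against 16.9% and 17.7% of all genes. The transcription factor ETV1 changed by -2.76 ± 0.16, the EGF receptor ligand TGFA by -1.75 ± 0.15 and the phosphatases DUSP4 and DUSP5 by -1.01 ± 0.15 and 1.02 ± 0.29.

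Cytokines and NF-kB genes were uneven across the dosed arrays. Their mean was 6.71 on dosed number 5, 5.61 to 5.78 on the other 4 dosed arrays and 5.80 to 6.21 on the vehicle arrays, so that dosed number 5 lay above the vehicle range and the other 4 dosed arrays lay below it. Number 5 was also the highest array of the vehicle group, at 6.21. Of 19 members 7 were higher and 5 lower, against 17.7% and 16.9% of all genes. Without dosed number 5 the counts were 6 and 7, and with number 5 left out of every group they were 6 and 6. The chemokine CXCL8 read 9.90, 9.53, 9.97, 11.65 and 10.04 against 8.13 to 9.25 with a median of 8.98, a change of 1.41 ± 0.33 (limma, adjusted p = 3.19e-04), or 1.05 without dosed number 5. Interleukin IL1B read 8.01, 8.68, 7.34, 10.66 and 8.14 against 9.52 to 11.39 with a median of 10.17, a change of -1.75 ± 0.47 (limma, adjusted p = 0.0013), or -2.27 without that array. IL11 changed by 1.59 ± 0.25, and the decoy receptor IL13RA2 by 4.02 ± 0.30 (vehicle mean under 4). PTGES, the prostaglandin E synthase downstream of cyclooxygenase 2, read 3.58, 4.12, 3.49, 3.71 and 3.87 against 8.20 to 9.32 with a median of 9.04, a change of -5.20 ± 0.27 (limma, adjusted p = 7.70e-21, dosed mean under 4), and PTGS2, cyclooxygenase 2 itself, changed by -2.63 ± 0.29.

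Immediate early genes were higher in 9 of 20 and lower in 3, against 17.7% and 16.9% of all genes. The counts were 6 and 2 without dosed number 5, and 10 and 2 with number 5 left out of every group. EGR1 read 6.91, 6.34, 7.53, 10.06 and 8.08 against 4.16 to 7.82 with a median of 5.48 in vehicle, with overlapping groups and a change of 2.11 ± 0.81 (limma, adjusted p = 0.0215). Without dosed number 5 the change was 1.54 (adjusted p = 0.1090) and it was no longer called, nor was it without vehicle number 2 or vehicle number 3. Vehicle number 5 was the highest vehicle array, at 7.82. With number 5 left out of every group EGR1 was called (1.97, limma adjusted p = 9.41e-04), as it was without the 3 arrays that stood apart (2.26, adjusted p = 0.0335). KLF10, an early TGF-beta target, changed by 1.04 ± 0.11 with separate groups, and the nuclear receptor NR4A2 by -2.15 ± 0.36. IL24, a secreted cytokine of the same array pattern, read 6.06, 5.83, 5.52, 9.79 and 7.69 against 3.56 to 6.62 with a median of 4.05, and its call (2.22 ± 0.78) was lost without dosed number 5 (1.52, limma adjusted p = 0.0935). The IL24 call was kept with number 5 left out of every group (1.89, limma adjusted p = 0.0044) and without the 3 arrays that stood apart (2.04, adjusted p = 0.0448). Of 18 interferon-stimulated genes 6 were lower and 3 higher, beside 16.9% and 17.7% of all genes. OAS1 changed by -2.58 ± 0.17, IFITM1 by -1.72 ± 0.22 and ISG15 by 0.92 ± 0.11.

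**Figure D4:**
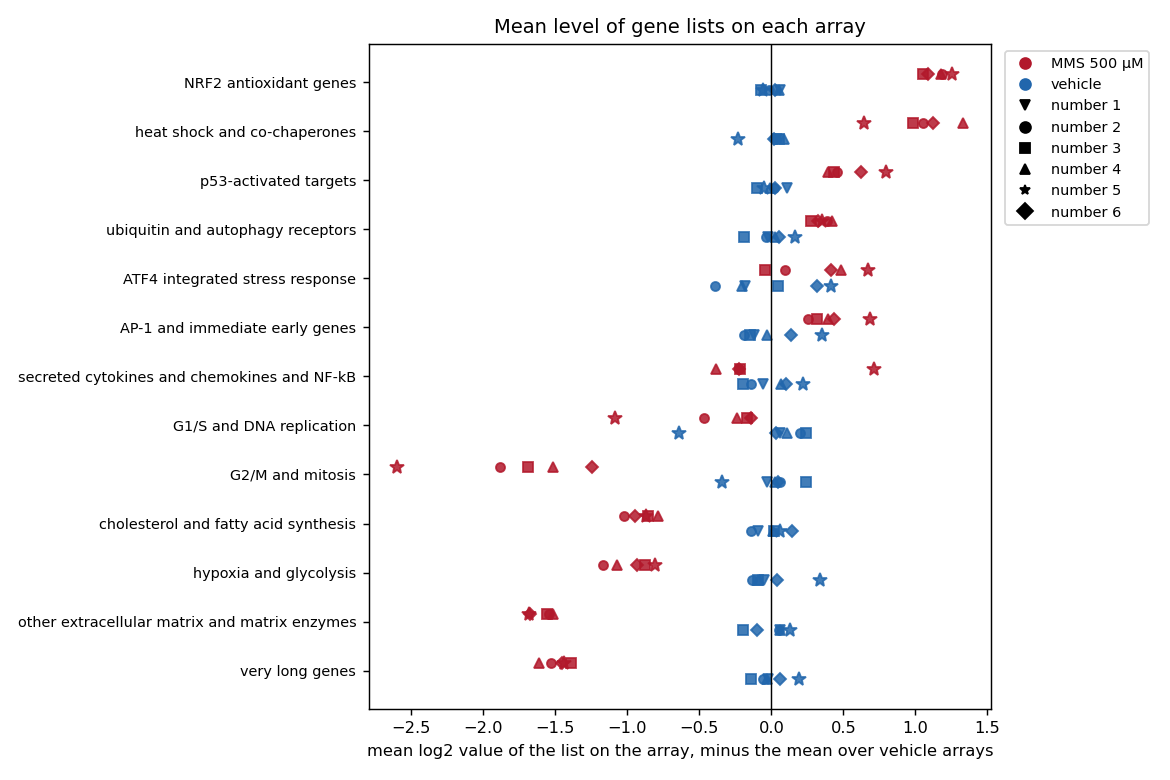
Mean log2 value of 13 gene lists on each of the 5 arrays at 500 µM (red) and the 6 vehicle arrays (blue), as the difference from the mean over vehicle arrays, with symbols for the array number. Dosed number 5 (red star) lies apart from the other dosed arrays in the heat shock, cytokine, G1/S and G2/M lists and close to them in the lipid, matrix and long gene lists.

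Of the genes of cholesterol and fatty acid synthesis measured, 14 of 20 were lower and 0 higher, against 16.9% and 17.7% of all genes, with a median of -0.74. SCD, which desaturates stearoyl-CoA, read 7.62, 7.90, 7.73, 8.00 and 7.98 on the dosed arrays and 10.60 to 11.26 with a median of 10.79 on the vehicle arrays, a change of -3.03 ± 0.17 (limma, adjusted p = 3.48e-19). The dosed arrays lay close together and far below the vehicle range. INSIG1, the sterol-sensing brake of SREBP, changed by -1.92 ± 0.18, the sterol carrier STARD4 by -2.29 ± 0.21, and the enzymes HMGCS1 and DHCR7 by -1.38 ± 0.19 and -1.26 ± 0.14. At 300 µM SCD was already lower than vehicle, at -0.94, and the difference between the doses was -2.10 ± 0.17 (limma, adjusted p = 4.19e-13). The 300 µM changes of the others were -0.34 for INSIG1, -0.36 for STARD4, -0.31 for HMGCS1 and -0.27 for DHCR7, and 14 of 20 members were called lower at 500 than at 300 µM, beside 10.5% of all genes.

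Hypoxia and glycolysis genes were lower in 15 of 26 and higher in 1, against 16.9% and 17.7% of all genes, with a median of -0.82. VEGFA, the angiogenic growth factor, read 9.40, 9.39, 8.48, 10.00 and 9.54 against 11.05 to 11.81 with a median of 11.21 in vehicle, a change of -1.92 ± 0.17 (limma, adjusted p = 1.84e-13). Carbonic anhydrase CA12 changed by -3.19 ± 0.19, aldolase ALDOC by -3.04 ± 0.28, the kinase PDK1, which closes off pyruvate oxidation, by -1.81 ± 0.17, and PGK1 by -0.83 ± 0.06. The higher member, the transcriptional repressor BHLHE40, changed by 0.74 ± 0.21 and lost the call without dosed number 5. It kept the call with number 5 left out of every group (0.67, limma adjusted p = 4.43e-06). Vehicle number 5 was the highest vehicle array in VEGFA, CA12, ALDOC and PDK1, at 11.81 for VEGFA. Of 6 measured members of the aryl hydrocarbon receptor axis 2 were higher and 2 lower, beside 17.7% and 16.9% of all genes, too few members to set apart from those shares. The receptor AHR read 7.45, 7.18, 6.99, 7.26 and 7.13 against 8.84 to 9.23 with a median of 9.13, a change of -1.87 ± 0.09 (limma, adjusted p = 1.95e-21). Its target CYP1A1 changed by 2.26 ± 0.15, with a vehicle mean under 4. AHRR, the other lower member, changed by -1.19 ± 0.20, with a dosed mean under 4.

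Genes of ribosome biogenesis, splicing and respiration were called lower no more often than genes in general (16.9%). Of 27 ribosome biogenesis genes 9 were higher and 0 lower, against 17.7% and 16.9% of all genes. UTP15 changed by 1.52 ± 0.15, NOP2 by 1.11 ± 0.13 and RRP12 by 1.09 ± 0.12, and vehicle number 5 was the lowest vehicle array in each of these 3. Of 23 splicing factors 0 were higher and 1 lower (median change -0.30), and of 25 nuclear-encoded respiratory chain subunits 0 were higher and 3 lower (median -0.21). The mean of the respiratory list was still lower on every dosed array, 10.05 to 10.20 against 10.35 to 10.49 in vehicle. For the splicing list the ranges overlapped, 10.05 to 10.23 against 10.12 to 10.51. Among 10 housekeeping genes, HPRT1 changed by -1.02 ± 0.07, PGK1 by -0.83 ± 0.06 and TBP by 0.61 ± 0.11 (a call lost without dosed number 4, without vehicle number 2 and with the replicate number as a block, where the change was 0.57), and the other 7 were not called. Of 21 actin, tubulin and lamin genes 7 were lower and 2 higher, against 16.9% and 17.7% of all genes. The nuclear lamina genes LMNB1 and LMNA changed by -1.82 ± 0.24 and -0.99 ± 0.11, and tubulin TUBB2A by 1.04 ± 0.12. Of 8 metallothionein and zinc transport genes 1 was called, lower, beside 16.9% of all genes. SPANXC, a cancer-testis gene of a near-identical family, read 9.19, 8.98, 8.81, 9.88 and 9.52 against 4.47 to 4.87 with a median of 4.79 in vehicle, a change of 4.55 ± 0.19 (limma, adjusted p = 1.16e-23). All its dosed arrays were well above the vehicle range, and its change at 300 µM was 3.82. Also among the 12 largest rises of well-measured genes were BEX2 (3.12 ± 0.27), the ubiquitin ligase adaptor KLHL21 (2.61 ± 0.15), the G protein subunit GNG4 (2.57 ± 0.24) and the serpin SERPINI1 (2.53 ± 0.29, -0.21 at 300 µM). MYCT1 rose from a vehicle mean under 4 by 6.19 ± 0.27, and differed from 300 µM by 4.41 ± 0.27 (limma, adjusted p = 4.80e-17).

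The falls were concentrated in genes that span a long stretch of genome. Genes were placed in deciles by the length of their span in RefSeq (GRCh38.p14), which 12055 of 12070 had. In the longest decile, 1206 genes of 159 to 2299 kb, 46.2% were called lower and 4.15% higher, and the median change was -0.50. In decile 5 from the shortest, of 21.5 to 30.0 kb, 9.87% were lower and 22.1% higher, with a median of 0.19. This decile had the lowest share lower and the highest median of all deciles. In the shortest decile 14.4% were lower and 16.8% higher, with a median of 0.04, so the shares did not move steadily with span. Array by array, the median over the longest decile was -0.52, -0.57, -0.56, -0.42 and -0.47 on dosed numbers 2 to 6, as the difference from the vehicle mean, and -0.07 to 0.10 on the vehicle arrays. No dosed array reached the vehicle range or that of the 300 µM arrays, -0.33 to -0.20. Genes of a list and of a decile are not independent replicates, so these shares are a description with no test.

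**Figure D5:**
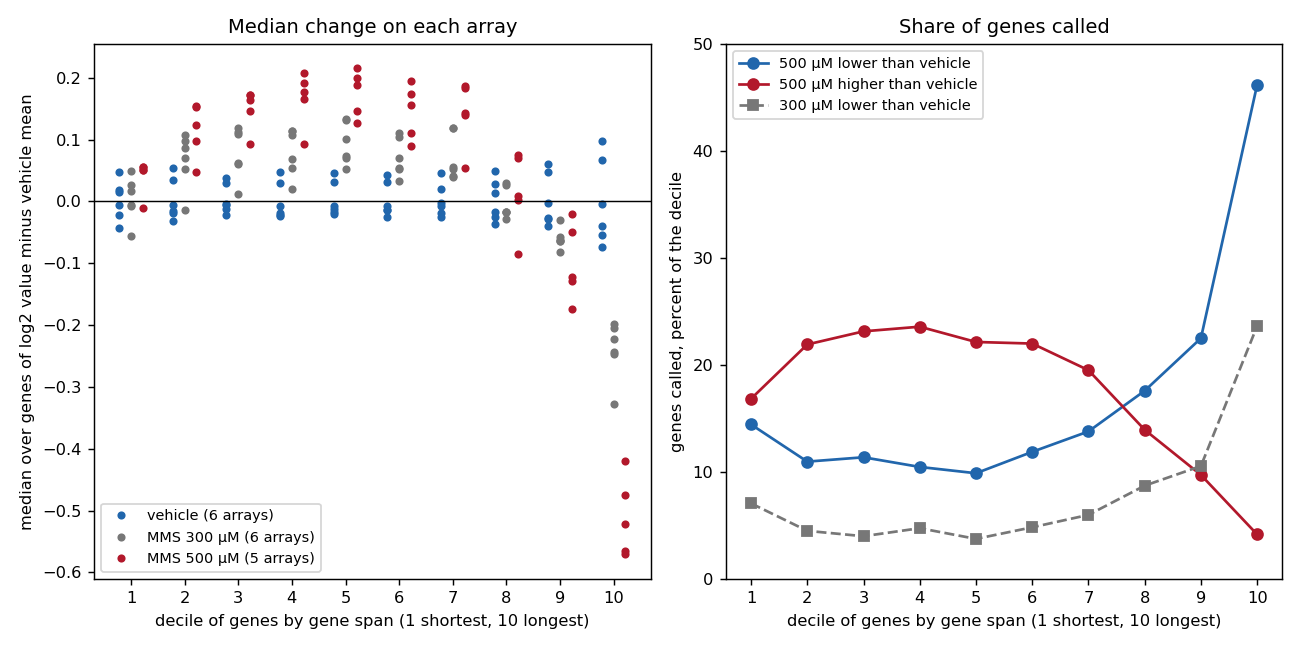
Left, median over genes of the log2 value minus the vehicle mean, in deciles of genes by span, for each vehicle array (blue), each 300 µM array (grey) and each 500 µM array (red). Right, percent of each decile called lower at 500 µM (blue), higher at 500 µM (red) and lower at 300 µM (grey) than vehicle; in the longest decile these are 46.2%, 4.15% and 23.6%.

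The difference held at each level of expression. Among genes with a vehicle mean under 6 the share lower was 34.4% in the longest decile and 10.0% in the others, from 6 to under 8 it was 53.7% and 15.6%, and at 8 or more it was 52.9% and 15.9%. Beyond 500 kb, 98 of 156 genes were lower and 5 higher, with a median change of -1.04. Of the 297 genes that fell at least 4-fold, 134 (45.1%) were in the longest decile, and their median span was 133 kb, beside 30.0 kb for all genes and 13.4 kb for the 42 genes that rose at least 4-fold. Against 300 µM, 29.4% of the longest decile were lower and 1.82% higher. Without the 3 arrays that stood apart, 44.9% of the longest decile were lower than vehicle.

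Single genes show the size of these falls. TENM2, a teneurin of 1285 kb, read 3.47, 2.90, 3.33, 2.56 and 2.78 against 8.32 to 9.00 with a median of 8.86 in vehicle, a change of -5.77 ± 0.30 (limma, adjusted p = 9.86e-21, dosed mean under 4). DPYD, dihydropyrimidine dehydrogenase, of 843 kb, read 2.78, 3.13, 3.15, 3.31 and 2.92 against 8.77 to 9.04 with a median of 8.89, a change of -5.82 ± 0.27 (adjusted p = 2.16e-22, dosed mean under 4), although its 1 other probe set was not called. NTM, an adhesion protein of 966 kb, read 5.46, 4.93, 5.30, 5.73 and 5.84 against 9.33 to 9.65 with a median of 9.42, a change of -3.99 ± 0.13 (adjusted p = 7.44e-28). In all 3 the vehicle arrays were 8 or above and the dosed arrays under 6. A list of 51 very long genes, from textbook knowledge of gene size and with a median span of 729 kb, had 38 members lower and 0 higher and a median change of -1.59. PRKCA, a protein kinase C of 508 kb, read 6.37, 6.68, 6.76, 6.77 and 6.45 against 9.61 to 9.92 with a median of 9.79, a change of -3.17 ± 0.15 (limma, adjusted p = 8.83e-22). The transcription factor NFIB changed by -3.04 ± 0.13, the receptor phosphatase PTPRG by -3.05 ± 0.15, utrophin (UTRN) by -3.21 ± 0.19 and the RNA-binding protein RBMS3 by -3.60 ± 0.24 (dosed mean under 4).

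Length did not divide the falls fully in either direction. Among genes that fell at least 4-fold, 58 spanned under 20 kb; the 8 with the largest falls, named after their values were seen, were F2R, GJB2, MIR210HG, PTGES, RAB26, RGS4, SCG2 and THBS1. GJB2, connexin 26, spans 5.47 kb and changed by -4.40 ± 0.26, and F2R, the thrombin receptor, spans 19.6 kb and changed by -4.56 ± 0.24, with dosed means under 4. The 5 genes over 500 kb that were higher, also named after their values were seen, were HDAC9 (1.93 ± 0.45), SYNE1 (1.65 ± 0.15), STARD13 (1.29 ± 0.13), NAV3 (0.82 ± 0.11) and PCDH9 (0.78 ± 0.19, vehicle mean under 4). The dosed and vehicle arrays of HDAC9 and PCDH9 overlapped. The HDAC9 call was lost when the probe sets of a gene were averaged, and neither of its 2 other probe sets was called. Several of the lists above also hold long genes: the median span was 122 kb for collagens, 80.4 kb for integrins and 59.6 kb for other matrix genes, and 28.2 kb for G2/M genes. The part of gene length in the fall of any list was not tested.

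The dosed arrays differed more among themselves than the vehicle arrays did. The median SD over genes was 0.23 at 500 µM, 0.18 in vehicle and 0.21 at 300 µM, and the dosed SD was larger than the vehicle SD in 69.0% of genes. The SE and p-values come from 1 spread per gene pooled over all 8 groups. They can therefore understate the spread of genes that were uneven at 500 µM. The 6 called genes with the largest SD over dosed arrays were HSPA6, EGR1, IL24, IL1B, PLXNC1 and SESN3. In HSPA6, EGR1, IL24, IL1B and PLXNC1 the array farthest from the others was number 5, and in SESN3, which read 4.28, 2.28, 4.84, 5.73 and 4.87 against 5.68 to 6.36 with a median of 5.99 in vehicle, it was number 3. SESN3, a stress-induced sestrin, changed by -1.61 ± 0.26, and neither of its 2 other probe sets was called. PLXNC1, a semaphorin receptor with a vehicle mean under 4, changed by 1.12 ± 0.50 and lost the call in 11 of 23 alternatives, among them those without dosed number 4, 5 or 6 or without any of vehicle numbers 1 to 4.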

How the data were processed

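Total RNA of HT-1080 cells was labelled with biotin and hybridised to Affymetrix 3′ expression arrays, per the labels' protocols. The authors deposited log2 expression values per probe set; GCRMA and Partek are named in the submitters' processing notes without versions, and further settings are not given in the sources used here. All 145 arrays are in 1 deposited table, in which array medians differed between the 3 chemicals and little within one, as values normalised within each chemical would; only the MMS arrays entered tests. Because values are already normalised, no read or scan depth applies, and the number of arrays limits the precision.

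Of 54613 probe sets, 40914 carried 1 gene symbol, 864 several and 12835 none in the platform annotation, and 40858 of the first matched a RefSeq gene. Probe sets at log2 4 or more in at least 5 of 145 arrays were kept, and the one with the highest mean stood for its gene, giving 12070 genes. Groups were taken from the labels. limma 3.58.1 in R 4.3.3 was fitted over all 47 MMS arrays in 8 groups (lmFit, eBayes with a mean-variance trend), with Benjamini-Hochberg adjustment over all genes. A call needed an adjusted p under 0.05 and a 1.5-fold difference. On simulated data with 12070 genes for the comparison with vehicle, the procedure recovered 96% of changes of size 1 on the log2 scale and 100% of changes of size 2, with 1 false call. The simulation changed 100 genes at each size and used independent normal noise with the same SD per gene in all groups. It held no outlying arrays and no ties between arrays, so these rates may not hold for the real arrays. Gene spans and promoters are from RefSeq (GRCh38.p14), and the build behind the array design is not given in the sources used here.

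Genes named are the 12 largest rises and 12 largest falls without overlap and with both means at 4 or more, up to 5 called members of each list in each direction (8 lower for very long genes), the 6 called genes with the largest SD over dosed arrays, the 6 largest differences each way from 300 µM, and 14 genes fixed by name. The comparison, lists and named genes were chosen with earlier results of these data known. Alternatives were other filters, normalisations, probe set summaries, variance models, fold limits, a replicate block and leaving out arrays.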

Additional observations from a re-analysis of the deposited data

Results flagged for a closer look

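Of 480 tests for an array far from the rest of its group, over the dosed and vehicle values of 240 named genes, 31 picked out an array, and chance picks out about 1 in 20. All values are log2 levels.

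Vehicle number 5 accounted for 12 of the 31. It was the lowest vehicle array for the cell cycle and replication genes CCNE2 (5.89), CDC25A (5.72), CDC45 (6.70), GINS3 (5.41), MCM7 (8.48), POLA1 (6.18), TK1 (7.72) and KIF20A (8.21), and for the repair genes APEX2 (5.05), BRIP1 (5.68) and TDP1 (7.71). It was the highest for the hypoxia-responsive repressor BHLHE40 (9.18).

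Dosed number 5 accounted for 5. It was the lowest dosed array for the heat shock gene HSPA6 (5.41) and for KIF20A (4.20), and the highest for the chemokine CXCL8 (11.65), the interleukin IL1A (7.25) and the growth factor TGFA (8.94).

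Dosed number 3 was the lowest for DNAJB9 (8.50) and IRF1 (3.59) and the highest for CA12 (4.28). Dosed number 4 was the lowest for MIR210HG (2.32) and PTPRG (4.89), and dosed number 6 was the highest for ITGB8 (3.03). On the vehicle side, number 6 stood apart for AKR1C1 (6.13) and IFIT1 (5.83), number 4 for HHIP (8.93), HSPA6 (3.93) and RRP1 (5.34), number 3 for SCG2 (7.11) and TGFB2 (8.12), and number 1 for CSF1 (8.29). The part of these arrays in each result was not tested beyond leaving them out.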

How the results depend on the processing

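None of the 238 named genes called against vehicle changed direction in the alternatives run, and with the filter at log2 6 or applied within the MMS arrays no endothelial marker was left to give a median. The number of genes changed against vehicle, 4173, became 1814 with a 2-fold limit and 7387 with no fold limit, and the number changed against 300 µM became 683 and 5483. The median change of the decile of genes with the longest spans, -0.50, became -0.63 with the filter at log2 6 and -0.59 with the filter applied within the MMS arrays. Leaving out 1 array at a time gave 4113 to 4316 genes against vehicle, 2126 to 2679 against 300 µM, a longest-decile median of -0.52 to -0.48 and a share lower of 44.6% to 46.7%. In alternatives chosen after seeing the data, leaving out dosed numbers 3 and 5 and vehicle number 5 gave 4210 and 2373 genes, and leaving number 5 out of every group gave 4065 and 2564. Of 240 named genes 238 were called against vehicle, and 204 kept the call in all 23 alternatives with the 1.5-fold limit whereas 34 lost it in at least 1. Of these, 10 lost it without dosed number 5, and among those 10 only ANXA2 and KLF2 also lost it with number 5 left out of every group. With the replicate number as a block, 4187 genes were changed against vehicle and 2255 against 300 µM; among named genes TBP (0.57) and ANXA2 (-0.58) fell below the fold limit and DDIT3 (0.65, limma adjusted p = 3.75e-05) passed the test. For numbers 2 to 6, dosed arrays deviated with the vehicle array of the same number at correlations of 0.29, -0.01, 0.37, 0.46 and 0.25, and with that of 300 µM at 0.31, -0.07, 0.36, 0.62 and 0.44. For 4 of the 5 numbers the same number was the best match in both groups, a hint from the data that numbers tie arrays together, and number 5 had a low array weight in all 8 groups (0.21 to 0.58). Dosed number 3 matched number 4 best in both groups (0.46 and 0.54), and the labels do not say what a number stands for, so the pairing was not built into the fit. The cause of these shifts was not tested beyond what each limit removes by construction. Levels near the background limit the size of falls: 623 called genes had a group mean under 4.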
